A study of Rattus norvegicus with 23 samples.

Results

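Hearts of newborn rats whose dams had diabetes in late pregnancy (diabetes, n = 6) were set against hearts of newborn rats whose dams ate a high-fat diet (HF diet, n = 5). These 11 hearts are the arrays labelled with either single exposure, out of 23 arrays in the series, which also holds 7 control and 5 combination hearts. All dams were Sprague Dawley rats, and every heart was taken whole on postnatal day 1. Dams of the diabetes group ate control diet and received 65 mg/kg streptozotocin, which destroys the pancreatic beta cells that make insulin, on gestational day 14, and their blood glucose was then held partly in check with insulin, toward 200 to 400 mg/dl. Dams of the HF diet group started the high-fat chow 28 days or more ahead of mating, stayed on it until delivery on gestational day 22, and received citrate buffer in place of streptozotocin. Control dams ate control diet and received buffer, and combination dams had both exposures. Each group mixed male and female pups, and no source used here states the sex of a given heart. The comparison therefore spans diet, streptozotocin and insulin treatment at once, and the parts of these in any difference cannot be told apart.

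Glucose crosses the placenta freely and maternal insulin does not, so a pup of a diabetic dam makes more insulin of its own. A high-fat diet raises the supply of lipids to the fetus over the whole pregnancy. The paper states that in this model diabetes also raised the dams' triglycerides, though less than the diet did. It reports raised insulin in the offspring to match. Around birth the heart moves from glucose and lactate to fatty acids as fuel, and it sees a fast before the first milk. When insulin is low, FOXO transcription factors enter the nucleus and switch on genes that slow growth and break down protein, which is why such genes serve as readouts of the fed or fasted state.

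Diabetes and HF diet hearts differed in few genes and by small amounts. Of 29170 probe sets, 128 differed by more than 0.322 on the log2 scale in either direction at an unadjusted p under 0.05 in limma (0.439% of those tested), 66 higher and 62 lower in diabetes hearts. This pair of cutoffs is the submitters' own and is called the threshold from here on. In limma 629 probe sets had an unadjusted p under 0.05 (2.16%), a smaller share than that cutoff lets through when no gene differs, and 0 passed a Benjamini-Hochberg adjusted p under 0.05, the lowest being 1.0. The methods' t-test, with unequal variances, put 82 past the threshold, 654 at an unadjusted p under 0.05 and 0 past the adjusted one. The paper's own count for this comparison at the same cutoffs was lower than either count given here. Every gene named below as past the threshold failed the adjusted test.

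The table gives log2 values in which each probe set's median over the 23 arrays is set to 0. A value is a distance from that median, so groups can be compared, while the level of a gene, and with it the identity of the tissue from its markers, cannot be read. The SD of an array over its probe sets lay between 0.16 and 0.3 in the 11 hearts, the widest in HF diet heart 3 (0.3), diabetes heart 6 (0.279) and diabetes heart 5 (0.277). The sample codes in the labels share a stem among some hearts. The 6 diabetes hearts carry 6 stems and the 5 HF diet hearts carry 3, with HF diet hearts 3, 4 and 5 on the same stem. What a stem stands for is not stated in the sources used here, so littermates may be among these hearts and the p-values reflect the spread of the hearts alone. Without diabetes heart 3 the count past the threshold was 351, and without HF diet hearts 1, 2 or 5 it was 205, 221 or 209.

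A single gene symbol is attached to 15310 probe sets in the platform annotation, and 59 of these passed the threshold (0.385%), 36 higher in diabetes (0.235%) and 23 lower (0.15%). The rest of the 128 have no symbol in that annotation. Diabetes and HF diet hearts did not overlap at all in 37 of the 15310 (0.242%), and 5 of the 59 were among them. When no gene differs, a single split of the 462 possible ones separates the hearts fully in a given direction, a share of 0.00216. Taken over both directions, the share seen was smaller than the one let through with no difference. The 59 lay nearer to control in diabetes than in HF diet hearts in most cases. HF diet means were farther from control than diabetes means for 29 of the 36 higher and 17 of the 23 lower probe sets. For 29 of the 36 and 21 of the 23, the means of the exposed groups lay on opposite sides of control. These counts use the same hearts as the threshold and describe only where the chosen probe sets lay.

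**Figure D1:**
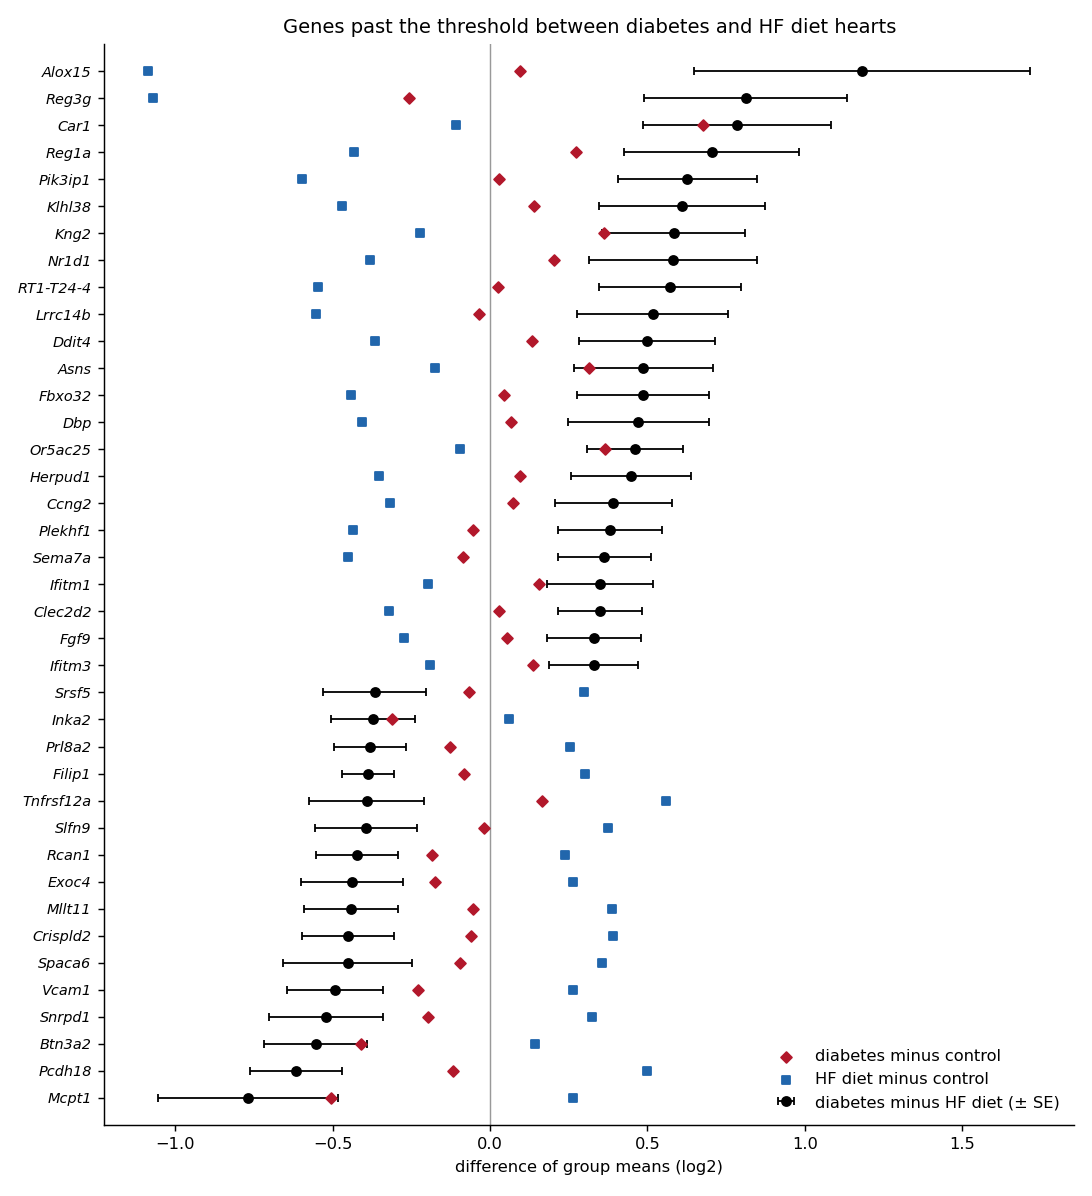
Differences of group means (x axis, log2) for the 39 named genes past the threshold. Circles are diabetes minus HF diet with 1 SE, diamonds diabetes minus control and squares HF diet minus control. Most diamonds lie nearer 0 than the squares, the exceptions being Car1, Kng2, Asns, Or5ac25, Mcpt1, Btn3a2 and Inka2.

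The 5 genes whose hearts separated without overlap were Filip1, Pcdh18, Vcam1 and Mllt11, lower in every diabetes heart than in every HF diet heart, and Fgf9, higher in every diabetes heart. Filip1 serves the cytoskeleton, Pcdh18 and Vcam1 cell adhesion, and Fgf9 growth signaling. Filip1 ran from -0.20 to 0.06 in the diabetes hearts, with a median of -0.12, and was 0.13, 0.24, 0.40, 0.28 and 0.40 in HF diet hearts 1 to 5. Filip1 encodes a filamin A-interacting protein of the actin cytoskeleton, and the gap between the highest diabetes heart and the lowest HF diet heart was narrow. The difference was -0.39 ± 0.082 (SE; limma, unadjusted p = 9.94e-05), with an exact permutation p = 0.00216, the smallest p that the 462 splits of these hearts allow. Full separation alone holds the permutation p of these 5 genes to this value or the next, so it only restates how they were chosen.

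Pcdh18 ran from -0.51 to 0.13 in the diabetes hearts, with a median of -0.23, and was 0.47, 0.56, 0.43, 0.39 and 0.14 in HF diet hearts 1 to 5. Pcdh18 is a protocadherin, a calcium-dependent adhesion protein of the cell surface, and here diabetes heart 1 lay just below HF diet heart 5. The difference was -0.62 ± 0.146 (SE; limma, unadjusted p = 0.000327), or 1.53-fold, with an exact permutation p = 0.00433. Vcam1 ran from -0.92 to 0.04 in the diabetes hearts, with a median of -0.12, and was 0.40, 0.44, 0.09, 0.05 and 0.04 in HF diet hearts 1 to 5. Vcam1, the vascular receptor that captures leukocytes through their integrins, was lowest by far in diabetes heart 5, and the highest diabetes heart all but touched HF diet hearts 4 and 5. The difference was -0.49 ± 0.154 (SE; limma, unadjusted p = 0.00402), with an exact permutation p = 0.00433.

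Mllt11 ran from -0.40 to 0.14 in the diabetes hearts, with a median of -0.20, and was 0.19, 0.36, 0.23, 0.15 and 0.32 in HF diet hearts 1 to 5. Mllt11 encodes a small protein first known as a fusion partner in leukemia, and its HF diet hearts were tightly grouped. The difference was -0.44 ± 0.15 (SE; limma, unadjusted p = 0.00739), with an exact permutation p = 0.00433. Fgf9 ran from -0.01 to 0.45 in the diabetes hearts, with a median of 0.02, and was -0.04, -0.20, -0.11, -0.59 and -0.17 in HF diet hearts 1 to 5. Fgf9 is a growth factor that the lining layers of the embryonic heart send to the muscle to keep it dividing. Most diabetes hearts sat close to 0, with heart 5 high, and HF diet heart 4 was low. The difference was 0.33 ± 0.149 (SE; limma, unadjusted p = 0.0377), with an exact permutation p = 0.00216.

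Set beside control, all 5 genes lay farther away in HF diet than in diabetes hearts, Vcam1 only slightly. HF diet differed from control by 0.50 ± 0.141 (SE) for Pcdh18, 0.39 ± 0.145 for Mllt11, 0.30 ± 0.0793 for Filip1, 0.26 ± 0.149 for Vcam1 and -0.27 ± 0.144 for Fgf9. Diabetes differed from the same control hearts by -0.12 ± 0.134, -0.05 ± 0.137, -0.08 ± 0.0754, -0.23 ± 0.141 and 0.05 ± 0.137. The HF diet distances of Vcam1 and Fgf9 had unadjusted limma p-values of 0.0909 and 0.0699.

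**Figure D2:**
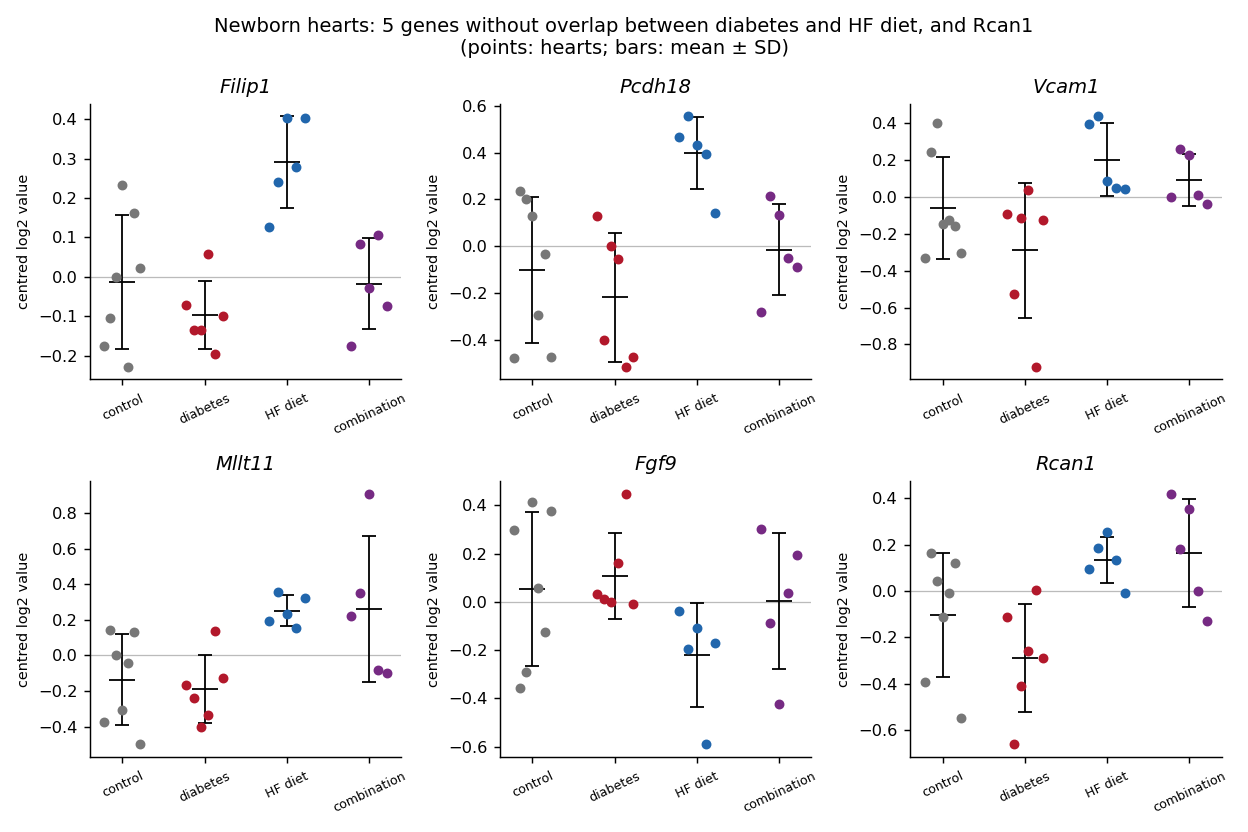
Centred log2 values (y axis) of Filip1, Pcdh18, Vcam1, Mllt11, Fgf9 and Rcan1 in each heart of the 4 groups. Points are hearts and bars are the mean with 1 SD. In the first 5 panels no diabetes heart reaches the range of the HF diet hearts, while control hearts lie in both ranges except for Mllt11, where none reaches that of the HF diet hearts.

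The promoters of these genes are shown because no other genes past the threshold separated the hearts fully. The table used holds none for Filip1. RefSeq promoter windows of build GRCr8, from 250 bases before to 50 after the start, were held for Pcdh18 (chr2:135996777-135997076, minus strand), Vcam1 (chr2:206742734-206743033, minus strand), Mllt11 (chr2:185493912-185494211, minus strand) and Fgf9 (chr15:36327108-36327407, plus strand). Each is written 5′ to 3′ on the gene's strand. Capitals mark matches, on either strand, to TATAAA (the TATA box), CCAAT (the CCAAT box), CACGTG (the E-box), GGGCGG (the GC box), TGACTCA (the AP-1 site), CACCTG (another E-box), GATAA (the GATA site) or GTAAACA (the forkhead site).
Pcdh18: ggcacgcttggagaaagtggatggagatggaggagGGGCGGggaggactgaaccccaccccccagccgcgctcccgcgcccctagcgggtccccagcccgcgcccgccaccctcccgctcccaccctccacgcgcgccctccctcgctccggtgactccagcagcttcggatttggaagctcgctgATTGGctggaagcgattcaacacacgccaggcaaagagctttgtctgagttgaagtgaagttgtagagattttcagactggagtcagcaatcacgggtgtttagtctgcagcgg
Vcam1: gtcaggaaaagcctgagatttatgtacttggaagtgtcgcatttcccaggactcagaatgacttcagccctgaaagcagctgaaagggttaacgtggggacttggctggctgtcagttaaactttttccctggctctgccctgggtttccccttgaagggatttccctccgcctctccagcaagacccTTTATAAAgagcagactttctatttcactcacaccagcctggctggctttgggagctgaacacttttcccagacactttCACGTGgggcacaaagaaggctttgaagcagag
Mllt11: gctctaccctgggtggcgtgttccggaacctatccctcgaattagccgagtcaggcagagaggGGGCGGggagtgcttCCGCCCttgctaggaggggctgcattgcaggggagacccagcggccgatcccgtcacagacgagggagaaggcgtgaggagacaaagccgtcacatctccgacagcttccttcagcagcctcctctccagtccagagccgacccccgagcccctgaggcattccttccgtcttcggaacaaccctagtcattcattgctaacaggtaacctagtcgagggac
Fgf9: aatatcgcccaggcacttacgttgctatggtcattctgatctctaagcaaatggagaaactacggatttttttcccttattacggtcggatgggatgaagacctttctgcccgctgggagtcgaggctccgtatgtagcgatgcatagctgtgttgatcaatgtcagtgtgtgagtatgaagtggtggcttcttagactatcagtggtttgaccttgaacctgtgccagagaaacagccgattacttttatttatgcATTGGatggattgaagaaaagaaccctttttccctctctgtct

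The 4 windows shared no single motif. CCAAT lay on the opposite strand in Pcdh18, at -64, and in Fgf9, at 8, and is held by 37.5% of the 33469 promoters of this length. GGGCGG lay in Pcdh18 at -215 and in Mllt11 at -187 and -172 (33.1% of all). Vcam1 held the letters TATAAA at -60, read on the other strand at -62 in overlapping letters (14.2% of all), and CACGTG at 18 (6.42% of all). Positions count from the start of the transcript, and a match says only that the letters are there.

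Rcan1 was lower in diabetes than in HF diet hearts and bears on calcineurin, the calcium-activated phosphatase that drives myocyte growth. Rcan1 ran from -0.66 to 0.01 in the diabetes hearts, with a median of -0.28, and was 0.10, 0.19, 0.26, 0.14 and -0.01 in HF diet hearts 1 to 5. Rcan1 is a calcineurin inhibitor whose own transcription calcineurin raises, and only diabetes heart 5 reached into the HF diet range. The difference was -0.42 ± 0.131 (SE; limma, unadjusted p = 0.00383), with an exact permutation p = 0.00649. Among 35 probe sets of hypertrophy and myocyte stress, 0 were higher and 2 lower in diabetes (Rcan1 and Tnfrsf12a), beside 0.235% and 0.15% of all named probe sets, the shares against which each list count below is to be read, with a median difference of -0.01, that of all named probe sets being -0.01. Srf, the serum response factor of muscle genes, stood at -0.30 ± 0.123 (SE; limma, unadjusted p = 0.0226), short of the size cutoff. Nppa, Nppb and Acta1, the stress markers of the myocyte most often measured, differed by 0.06, -0.14 and 0.01 without passing.

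Of 27 calcium cycling probe sets, 1 was past the threshold (Rcan1), and the median difference was -0.08. Ryr2, the calcium release channel, differed by -0.14, Atp2a2, the calcium pump, by -0.04, and Pln, its inhibitor, by 0.02, none past the threshold. The mean of the list was -0.36 in diabetes heart 5 and between -0.05 and 0.16 in the other 10 hearts. Sln, which is also on the atrial list, is part of that mean and was at -3.82 in diabetes heart 5. Of 31 sarcomere probe sets 1 passed (Filip1, lower), with a median of -0.03.

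Crispld2 and Pcdh18, both on the fibroblast list, were lower in diabetes hearts. Crispld2 ran from -0.28 to 0.21 in the diabetes hearts, with a median of -0.08, and was 0.20, 0.31, 0.23, 0.85 and 0.39 in HF diet hearts 1 to 5. Crispld2, a secreted protein that glucocorticoid is known to induce, was high in HF diet heart 4, and diabetes heart 6 alone reached the HF diet range. The difference was -0.45 ± 0.145 (SE; limma, unadjusted p = 0.00502), with an exact permutation p = 0.00649. Of 25 fibroblast probe sets 2 were lower (Pcdh18 and Crispld2) and 0 higher, beside 0.15% lower among all named probe sets. Pdgfra, Dcn and Lum, which define fibroblasts, differed by -0.11, 0.10 and 0.03, and the list's median was 0.01. Of 20 collagen and 35 elastic fiber and matrix remodelling probe sets 0 passed. The mean of the fibroblast list lay between -0.02 and 0.05 in diabetes hearts and between -0.19 and 0.15 in HF diet hearts.

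Vcam1 and Tnfrsf12a, the receptor of the cytokine TWEAK, were the 2 calls among 27 probe sets of leukocyte adhesion and endothelial activation. Tnfrsf12a ran from -0.34 to 0.42 in the diabetes hearts, with a median of -0.04, and was -0.06, 0.31, 0.45, 0.47 and 0.72 in HF diet hearts 1 to 5. The groups overlapped, with diabetes hearts 3, 5 and 6 inside the HF diet range. The difference was -0.39 ± 0.182 (SE; limma, unadjusted p = 0.0421), and it passed in 3 of the 11 fits that left out 1 heart. The median of the list was 0.11, opposite in sign to its 2 calls, and Icam1 and Icam2, the related leukocyte receptors, differed by -0.04 and 0.00. Among 24 endothelial probe sets 0 passed, with a median of -0.01.

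Immune cell genes were represented by Mcpt1, a chymase of mast cell granules. Mcpt1 ran from -0.59 to 0.03 in the diabetes hearts, with a median of -0.34, and was 0.28, 0.82, -0.13, 0.66 and 0.68 in HF diet hearts 1 to 5. Diabetes hearts 1 and 4 lay above HF diet heart 3, and the other diabetes hearts lay below all HF diet hearts. The difference was -0.77 ± 0.286 (SE; limma, unadjusted p = 0.0135), the largest among named genes past the threshold and lower in diabetes, with an exact permutation p = 0.00866. Rat Mcpt1 has near-identical copies whose probes can share signal, so this value is uncertain as to the gene. Of 14 mast cell probe sets 1 passed, and Mcpt4 and Ms4a2, the latter the beta chain of the IgE receptor, differed by -0.10 and -0.19. Btn3a2 ran from -1.19 to 0.10 in the diabetes hearts, with a median of -0.28, and was -0.01, 0.07, 0.35, 0.18 and 0.28 in HF diet hearts 1 to 5. Btn3a2, a butyrophilin of the immunoglobulin superfamily, was low in diabetes heart 6 above all. The difference was -0.55 ± 0.165 (SE; limma, unadjusted p = 0.00275), with an exact permutation p = 0.013. A second Btn3a2 probe set differed by 0.02, so the probe sets of this gene disagree.

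The splicing genes Snrpd1 and Srsf5 were lower in diabetes hearts. Snrpd1 ran from -0.70 to 0.05 in the diabetes hearts, with a median of -0.45, and was 0.20, -0.13, 0.61, 0.00 and 0.11 in HF diet hearts 1 to 5. Snrpd1 is a core Sm protein of the spliceosome, and diabetes hearts 4 and 5 lay inside the HF diet range. The difference was -0.52 ± 0.18 (SE; limma, unadjusted p = 0.00816), with an exact permutation p = 0.026. Srsf5 ran from -0.40 to 0.32 in the diabetes hearts, with a median of -0.04, and was -0.03, 0.07, 1.20, 0.12 and 0.18 in HF diet hearts 1 to 5. Srsf5, a splicing factor of the SR family, stood at -0.37, a value carried by HF diet heart 3, without which it was -0.14 and no longer passed. Of 39 splicing probe sets 2 were lower, 0 higher, and the median was -0.11. Only 7.69% of them had a positive difference, against 46.5% of all named probe sets. The mean of the list was 0.30 in HF diet heart 3, between 0.02 and 0.07 in the other HF diet hearts, and between -0.12 and 0.10 in diabetes hearts. The part of HF diet heart 3 in the list was not tested.

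Genes that fasting and low insulin switch on were the group with the most calls. Of 33 probe sets of FOXO, fasting and atrophy genes, 6 were higher in diabetes than in HF diet hearts (18.2%, beside 0.235% of all named probe sets) and 0 lower. Their median difference was 0.14, and 84.8% were positive. The list was drawn up with earlier results of these data known, so its count is not independent evidence. The 6 were Pik3ip1, Klhl38, Ddit4, Fbxo32, Ccng2 and Plekhf1, between 0.38 and 0.63 on the log2 scale, or 1.3- to 1.54-fold.

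Pik3ip1 ran from -0.54 to 0.51 in the diabetes hearts, with a median of 0.31, and was -0.53, -0.14, -0.78, -0.52 and -0.21 in HF diet hearts 1 to 5. Pik3ip1 inhibits PI3-kinase, the enzyme that carries the insulin signal inward. Diabetes heart 3 lay with the HF diet hearts and the other 5 lay above all of them. The difference was 0.63 ± 0.221 (SE; limma, unadjusted p = 0.00945), with an exact permutation p = 0.0216. Klhl38 ran from -1.23 to 0.58 in the diabetes hearts, with a median of 0.24, and was -0.53, -0.49, -0.91, -0.30 and -0.59 in HF diet hearts 1 to 5. Klhl38, a kelch protein that rises in wasting muscle, had diabetes heart 3 below every HF diet heart and the others above every one. The difference was 0.61 ± 0.264 (SE; limma, unadjusted p = 0.0302), with an exact permutation p = 0.0801.

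Fbxo32 ran from -0.47 to 0.75 in the diabetes hearts, with a median of 0.24, and was -0.07, -0.25, -0.29, -0.44 and -0.29 in HF diet hearts 1 to 5. Fbxo32 is atrogin-1, the ubiquitin ligase that marks muscle proteins for breakdown, and again 5 diabetes hearts lay above all HF diet hearts and heart 3 below them. The difference was 0.49 ± 0.209 (SE; limma, unadjusted p = 0.029), with an exact permutation p = 0.0584. Ddit4 ran from -0.27 to 0.69 in the diabetes hearts, with a median of 0.24, and was -0.50, -0.30, -0.30, 0.26 and -0.55 in HF diet hearts 1 to 5. Ddit4, which restrains the growth kinase mTOR, overlapped more, since HF diet heart 4 lay high and diabetes hearts 3 and 4 low. The difference was 0.50 ± 0.216 (SE; limma, unadjusted p = 0.0304), with an exact permutation p = 0.052.

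Ccng2 ran from -0.34 to 0.29 in the diabetes hearts, with a median of 0.19, and was -0.34, -0.20, -0.17, -0.79 and 0.05 in HF diet hearts 1 to 5. Ccng2 is cyclin G2, a brake on the cell cycle, and diabetes heart 3 was the low one of its group. The difference was 0.39 ± 0.186 (SE; limma, unadjusted p = 0.0466), with an exact permutation p = 0.0411. Plekhf1 ran from -0.25 to 0.37 in the diabetes hearts, with a median of 0.12, and was -0.36, -0.10, -0.48, -0.37 and -0.27 in HF diet hearts 1 to 5. Plekhf1 is an endosomal protein, and its diabetes hearts 1 and 3 lay in the HF diet range. The difference was 0.38 ± 0.166 (SE; limma, unadjusted p = 0.0312), with an exact permutation p = 0.0173. Trim63, the other main ubiquitin ligase of muscle atrophy, differed by 0.16 and did not pass.

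The distance from control of all 6 genes was greater in HF diet than in diabetes hearts. HF diet differed from control by -0.60 ± 0.213 (SE) for Pik3ip1, -0.47 ± 0.255 for Klhl38, -0.44 ± 0.202 for Fbxo32, -0.43 ± 0.16 for Plekhf1, -0.37 ± 0.209 for Ddit4 and -0.32 ± 0.18 for Ccng2. Diabetes differed from control by 0.03, 0.14, 0.05, -0.05, 0.13 and 0.07 in the same order, each within 1 SE of 0. The mean of the whole list was -0.23, -0.15 and -0.13 in HF diet hearts 1, 2 and 3, but 0.08 and 0.01 in hearts 4 and 5, and between 0.01 and 0.37 in diabetes hearts, so the groups overlapped over the list.

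**Figure D3:**
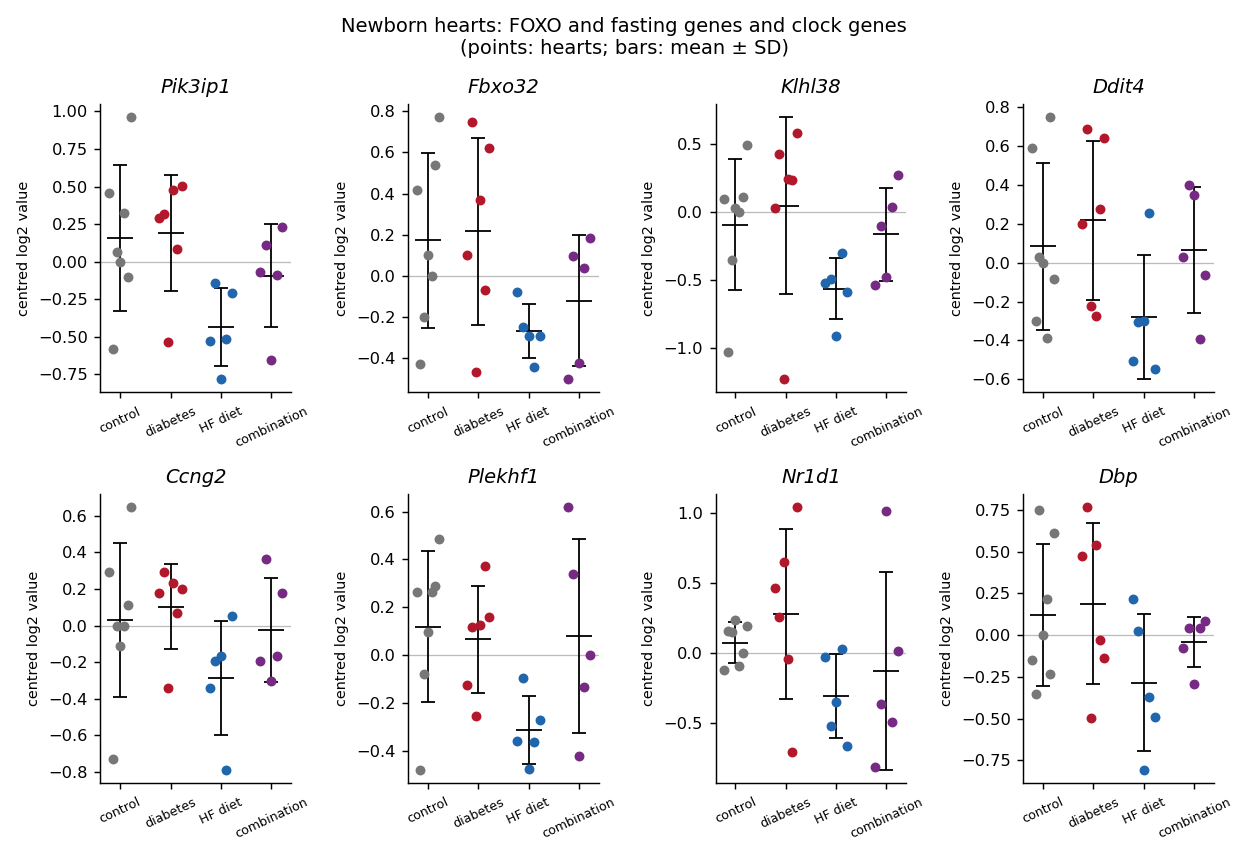
Centred log2 values (y axis) of 6 FOXO and fasting genes and 2 clock genes in each heart of the 4 groups, with the mean and 1 SD. Diabetes heart 3 is the lowest diabetes heart for Pik3ip1, Fbxo32, Klhl38, Ccng2, Plekhf1 and Dbp, and control hearts spread widely in every panel but that of Nr1d1, where they lie between -0.12 and 0.23.

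Pik3ip1 was the one of the 6 that passed in all 11 fits leaving out 1 heart. Without diabetes heart 3, the gap of Pik3ip1 was 0.77 and that of Klhl38 0.87. The RefSeq promoter window of Pik3ip1 (build GRCr8, chr14:82428065-82428364, plus strand) is shown because the forkhead letters GTAAACA, to which FOXO factors bind, lie in it on the opposite strand, starting at position 1. This motif was added after the values were seen.
Pik3ip1: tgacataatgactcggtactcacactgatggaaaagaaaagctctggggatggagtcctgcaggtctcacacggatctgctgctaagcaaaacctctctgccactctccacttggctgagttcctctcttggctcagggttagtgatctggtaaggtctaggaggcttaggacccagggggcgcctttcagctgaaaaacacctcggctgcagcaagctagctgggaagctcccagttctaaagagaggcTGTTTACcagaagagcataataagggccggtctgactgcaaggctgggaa

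Of all promoters of this length 3.78% hold the forkhead letters. The windows of Ddit4, Plekhf1 and Ccng2 do not hold them, which says nothing about factors bound elsewhere.

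The list of insulin signaling genes, which does not include Pik3ip1, showed no call. Of 36 probe sets of insulin, IGF and AKT signaling, 0 passed, and their median difference was -0.01. Insr, Igf1r and Igf2r, the receptors, differed by -0.09, -0.14 and -0.11. Glucocorticoid rises around birth and induces several of the same genes. Of 28 glucocorticoid target probe sets 1 was higher (Ddit4) and 0 lower, with a median of 0.19 and 89.3% positive. Fkbp5, Tsc22d3 and Per1 differed by -0.38, 0.19 and 0.45, none past the threshold, and the list's mean ranged from -0.14 to 0.64 in diabetes hearts and from -0.21 to 0.40 in HF diet hearts.

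Of 17 circadian clock probe sets, 2 were higher in diabetes hearts (Nr1d1 and Dbp; 0.235% of all named probe sets were) and 0 lower, with a median of 0.06. Nr1d1 ran from -0.71 to 1.04 in the diabetes hearts, with a median of 0.36, and was -0.03, -0.52, -0.35, 0.03 and -0.66 in HF diet hearts 1 to 5. Nr1d1 is REV-ERB alpha, a repressor in the clock loop, and diabetes heart 5 was the lowest heart of both groups. The difference was 0.58 ± 0.267 (SE; limma, unadjusted p = 0.0398), with an exact permutation p = 0.0887. Dbp ran from -0.50 to 0.77 in the diabetes hearts, with a median of 0.23, and was 0.22, 0.03, -0.81, -0.37 and -0.49 in HF diet hearts 1 to 5. Dbp, a transcription factor at the output of the clock, stood at 0.47 ± 0.225 (SE; limma, unadjusted p = 0.0474), with an exact permutation p = 0.121. Of the activators, Bmal1 differed by -0.08, Clock by -0.12 and Npas2 by -0.10, none past the threshold. The time of day at which each heart was taken is not among the labels, and its part was not tested.

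The amino acid and protein stress genes Asns and Herpud1 were also higher. Asns ran from -0.11 to 0.53 in the diabetes hearts, with a median of 0.20, and was -0.38, 0.01, -1.002, -0.13 and -0.05 in HF diet hearts 1 to 5. Asns makes asparagine and is a target of ATF4, the factor of the integrated stress response. The difference was 0.49 ± 0.222 (SE; limma, unadjusted p = 0.0386), with an exact permutation p = 0.0281. Without HF diet heart 3, the lowest heart, it was 0.31 and no longer passed. Herpud1 ran from -0.29 to 0.32 in the diabetes hearts, with a median of 0.16, and was 0.00, 0.11, -1.43, -0.34 and -0.08 in HF diet hearts 1 to 5. Herpud1, which helps clear misfolded proteins from the endoplasmic reticulum, stood at 0.45, and HF diet heart 3 was the outlying low heart, without which it was 0.18. Of 40 probe sets of the unfolded protein and stress response 2 were higher and 0 lower, with a median of -0.004. The chaperones Hspa5, Hsp90b1 and Calr differed by -0.03, -0.11 and -0.12.

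Alox15, a lipoxygenase, and the secreted lectins Reg3g and Reg1a were higher in diabetes hearts. Alox15 ran from -1.79 to 1.45 in the diabetes hearts, with a median of 0.46, and was 0.34, 0.00, -2.21, -1.68 and -1.06 in HF diet hearts 1 to 5. Alox15 oxidizes polyunsaturated fatty acids to signaling lipids. Its difference was 1.18 ± 0.535 (SE; limma, unadjusted p = 0.0375), 2.27-fold and the largest among the named genes past the threshold. HF diet hearts 3, 4 and 5, which share a code stem, were low, HF diet hearts 1 and 2 were not, and diabetes heart 3 was low too. With hearts of 1 stem averaged the difference fell to 0.70 and did not pass, and the exact permutation p = 0.102.

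Reg3g ran from -0.83 to 1.05 in the diabetes hearts, with a median of 0.05, and was -0.56, -0.33, -0.65, -0.998 and -0.98 in HF diet hearts 1 to 5. Reg3g, a secreted lectin that kills bacteria, was higher in 5 diabetes hearts than in any HF diet heart, while diabetes heart 6 lay inside the HF diet range. The difference was 0.81 ± 0.322 (SE; limma, unadjusted p = 0.0192), with an exact permutation p = 0.0368. Reg1a ran from -0.21 to 1.60 in the diabetes hearts, with a median of 0.34, and was -0.17, -0.01, 0.02, -0.28 and -0.71 in HF diet hearts 1 to 5. Reg1a, a related regenerating protein, was high in diabetes heart 4 above all. The difference was 0.70 ± 0.279 (SE; limma, unadjusted p = 0.019), with an exact permutation p = 0.0541. Of 29 probe sets of lectins, regenerating and antimicrobial proteins, 3 were higher (Reg1a, Reg3g and Clec2d2 at 0.35) and 0 lower, with a median of 0.04. Reg3b, at 0.58 ± 0.347 (SE), did not pass in limma. That SE also draws on control and combination hearts, and Reg3b stood at 2.46 in control heart 1. Its failure to pass therefore does not rest on the spread of the compared hearts alone. Reg3b ran from -0.32 to 0.50 in the diabetes hearts and was -0.22, 0.00, -0.58, -0.80 and -0.44 in HF diet hearts 1 to 5. For Reg3g, HF diet minus control was -1.07 ± 0.312 (SE) and diabetes minus control -0.26 ± 0.296.

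Interferon-induced membrane proteins were higher in diabetes hearts, namely Ifitm3 (0.33 ± 0.141 (SE; limma, unadjusted p = 0.0289)) and Ifitm1 (0.35 ± 0.168 (SE; limma, unadjusted p = 0.0483)). Their HF diet values were -0.20, -0.24, -0.97, 0.14 and -0.02 for Ifitm3 and -0.23, -0.15, -0.84, -0.04 and 0.15 for Ifitm1, so HF diet heart 3 was the low heart in both. Without it the differences were 0.15 and 0.20, and neither passed. Of 31 interferon response probe sets these 2 were higher and 0 lower, with a median of 0.01, and Ifit1, Ifit2 and Ifit3, the standard readouts of interferon, differed by -0.05, 0.07 and -0.01. Close copies of the Ifitm genes can share signal.

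The red cell gene Car1 was higher in diabetes hearts. Car1 ran from -0.12 to 1.13 in the diabetes hearts, with a median of 0.38, and was -0.57, -0.42, -0.33, -0.46 and 0.22 in HF diet hearts 1 to 5. Car1 is the carbonic anhydrase of red cells, and diabetes hearts 4, 5 and 6 were above every HF diet heart. The difference was 0.78 ± 0.299 (SE; limma, unadjusted p = 0.0152), with an exact permutation p = 0.026. Of 33 erythroid probe sets 1 was higher and 0 lower, with 84.8% positive and a median of 0.13. Slc4a1, the anion exchanger of the red cell membrane, at 0.70 ± 0.342 (SE; limma, unadjusted p = 0.0514), and Ahsp, the chaperone of alpha globin, at 0.84 ± 0.442 (SE; limma, unadjusted p = 0.0691), did not pass, and Alas2, the first enzyme of heme synthesis, differed by 0.17. The mean of the list was 0.45, 0.20 and 0.22 in diabetes hearts 4, 5 and 6, and between -0.17 and 0.03 in the other 8 hearts. With that mean as a covariate, Car1 stood at 0.32 and no longer passed. Car1 is itself part of the mean, so some of this fall is built in. In whole hearts, more blood left in the tissue and more transcript per red cell cannot be told apart.

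The same covariate left 22 of the 59 calls past the threshold. Pik3ip1 stood at 0.54 and Nr1d1 at 0.64, both still past it. Fbxo32, Klhl38 and Ddit4 stood at 0.46, 0.54 and 0.47, in the same direction but short of it.

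**Figure D4:**
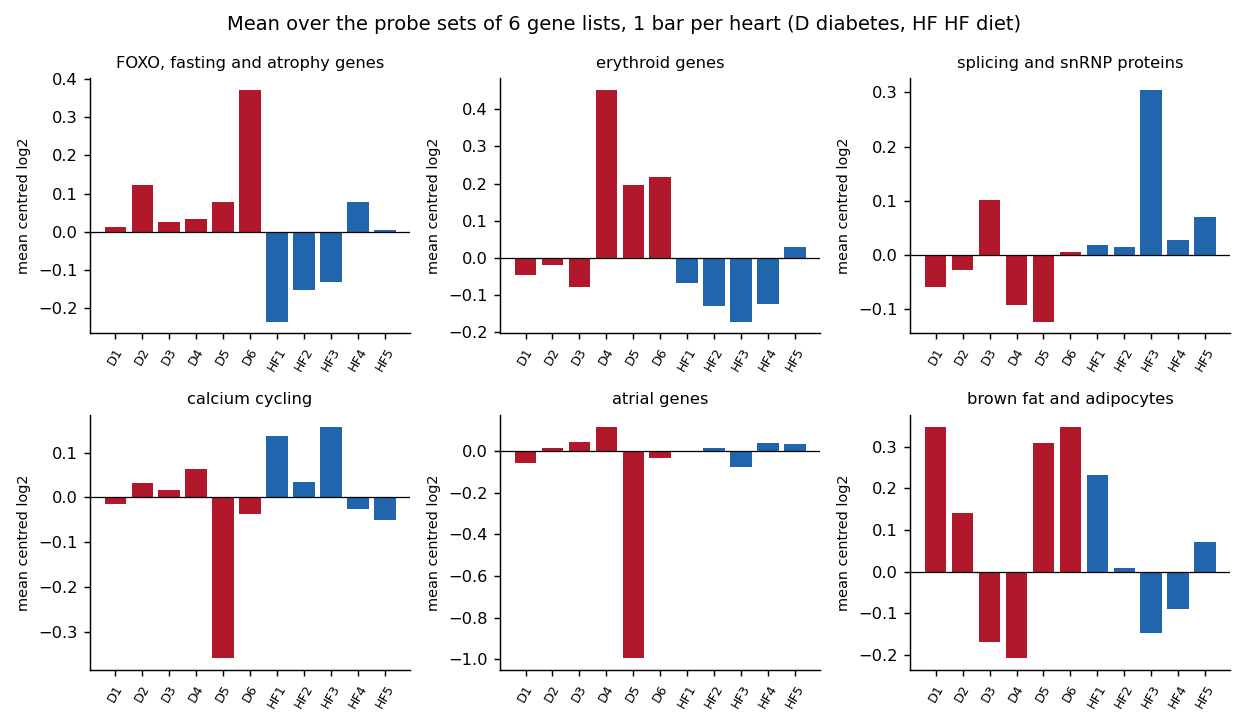
Mean centred log2 value (y axis) over the probe sets of 6 gene lists in each of the 11 hearts, diabetes hearts 1 to 6 and HF diet hearts 1 to 5. Diabetes heart 5 is low in atrial and calcium cycling genes, both of which lists hold Sln. HF diet heart 3 is high in splicing genes, and diabetes hearts 4, 5 and 6 are high in erythroid genes.

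Markers of other tissues set single hearts apart. The mean of 16 lung epithelium probe sets was 0.59 in diabetes heart 3 and 0.75 in HF diet heart 4, and between -0.18 and 0.16 in the other 9 hearts. Not every lung marker was raised in diabetes heart 3 and HF diet heart 4. In that order Sftpa1 was 0.53 and 1.19, and Sftpb 0.36 and 0.34. Sftpc was -0.02 and 0.03, Nkx2-1 -0.05 and 0.18, and Foxj1 0.04 and 0.13 in these hearts. These hearts also held the outlying values of Klhl38 and Ccng2 (diabetes heart 3) and of Crispld2 and Fgf9 (HF diet heart 4), and leaving them out gave 351 and 173 calls. Of the 16 lung probe sets 0 passed, with a median of -0.05, and their part in the calls was not tested. The atrial list stood at -0.995 in diabetes heart 5 and between -0.08 and 0.12 in the other 10 hearts, and in that heart Sln, the atrial regulator of the calcium pump, was at -3.82 and Bmp10, an atrial growth factor, at -3.67. Of 15 atrial probe sets 0 passed, Bmp10 standing at -1.03 ± 0.513 (SE; limma, unadjusted p = 0.0573) and Sln at -0.46. Without diabetes heart 5 Bmp10 stood at -0.47 and Sln at 0.18, so the sign of Sln rested on that heart. Brown fat and adipocyte genes ranged from -0.21 to 0.35 in diabetes hearts and from -0.15 to 0.23 in HF diet hearts, and Ucp1, which defines brown fat, from -0.78 to 2.28 and from -0.68 to 1.68. Of 15 such probe sets 0 passed. The lymphocyte and thymus list lay between -0.07 and 0.03 in the 11 hearts. It stood at 2.77 in control heart 1, where the lung list stood at 2.41. This control heart enters every distance from control given here. Through the pooled variance it also enters each SE and limma p of diabetes minus HF diet. With only the 11 hearts in the fit, 142 probe sets passed in place of 128, and 50 of the 59 named calls were kept. Of 19 ventricular and conduction probe sets 0 passed, with Myl2, Myl3 and Irx4 at 0.01, 0.07 and 0.11. The part of these tissues in the calls was not tested except by the covariate fits for blood and brown fat.

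Fuel metabolism gave no call. Of 46 probe sets of fatty acid oxidation and PPAR targets 0 passed. Their median difference was 0.07, with 91.3% positive, and the list's mean ranged from -0.27 to 0.15 in diabetes hearts and from -0.44 to 0.15 in HF diet hearts. Cpt1a, Cpt1b and Cpt1c, which admit fatty acids to mitochondria, differed by 0.01, 0.02 and 0.04. Of 56 glycolysis probe sets 0 passed (median 0.02), as of 36 for complex I (0.04), 46 for complexes II to V (0.01), 73 for the mitochondrial ribosome (0.04), 16 for the citric acid cycle (0.01), 36 for cholesterol and lipid synthesis (0.00) and 20 for collagens (-0.06). Of 45 cell cycle probe sets 0 passed, with a median of -0.07 and 24.4% positive. Of the 59 lists drawn up, 41 held no call.

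Growth factor and guidance families gave single calls. Of 34 fibroblast growth factor probe sets 1 was higher (Fgf9), with a median of -0.03, and Fgf1, Fgf2 and Fgf3 differed by 0.22, -0.07 and -0.02. Of 24 semaphorin and plexin probe sets 1 was higher. It was Sema7a, a membrane-anchored semaphorin, whose HF diet hearts were -0.23, -0.19, -0.74, -0.12 and -0.21 and which stood at 0.36 ± 0.148 (SE; limma, unadjusted p = 0.0223). Of 23 cadherin and protocadherin probe sets 1 was lower (Pcdh18), with a median of 0.00.

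Other named genes belonged to no list. Higher in diabetes hearts were Kng2, a kininogen, at 0.58, RT1-T24-4, a class I histocompatibility gene, at 0.57 with a second probe set at 0.13, Lrrc14b at 0.52 and Or5ac25, an olfactory receptor gene, at 0.46. Lower were Spaca6, a sperm protein, at -0.45 with its other probe sets at -0.47 and -0.27, Exoc4, a subunit of the exocyst, at -0.44, Slfn9 at -0.39, Prl8a2, of the prolactin family, at -0.38 and Inka2 at -0.37. The RT1 and olfactory receptor genes have close copies that can share signal. The 20 named probe sets past the threshold and not described here, 13 higher and 7 lower, differed by 0.327 to 0.416 in size.

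The sign of all 59 held in the 25 alternatives run, though several of these keep the group means and could not change it. Of the 59, 31 also passed in the methods' t-test, 39 with the code stem as a random block and 26 with hearts of 1 stem averaged, and the exact permutation p was under 0.05 for 34. In every fit that left out 1 heart 13 of the 59 passed, 10 lower and 3 higher. Of the others described, Reg3g passed in 10 of these 11 fits, Reg1a in 9, Fgf9, Fbxo32 and Ddit4 in 7, Klhl38, Plekhf1 and Asns in 6, Dbp in 5, Nr1d1 and Alox15 in 4, and Ccng2 and Tnfrsf12a in 3. Past the threshold in all 25 alternatives were 11, namely Filip1, Pcdh18, Btn3a2, Rcan1, Vcam1, Crispld2, Mllt11, Snrpd1 and Mcpt1, lower in diabetes, and Pik3ip1 and Or5ac25, higher.

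**Figure D5:**
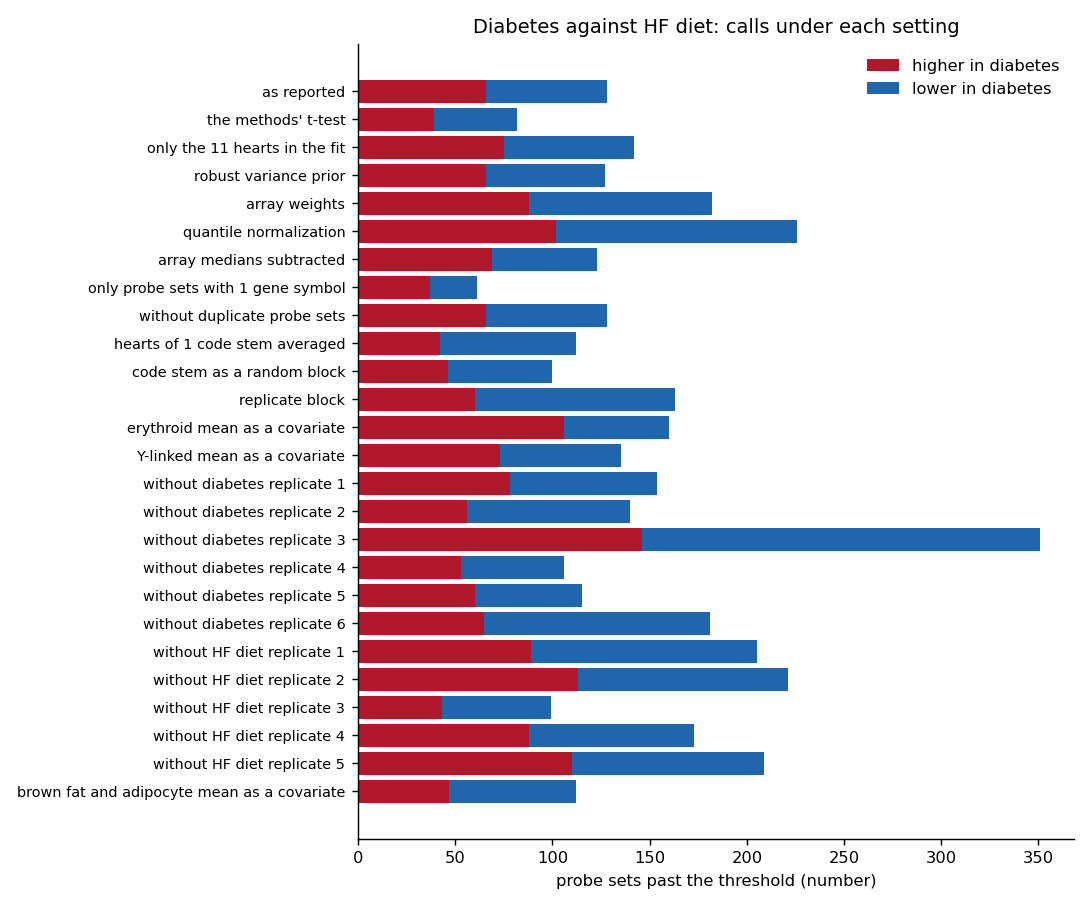
Number of probe sets past the threshold (x axis) in the fit as reported, at 128, and in 25 alternatives, split into higher and lower in diabetes hearts. The bar without diabetes replicate 3 is the longest, at 351. The bar over probe sets with 1 gene symbol is the shortest, at 61, but it tests only 15310 of the 29170 probe sets.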

How the data were processed

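RNA of 23 newborn rat hearts was hybridized to Affymetrix Rat Gene 1.0 ST arrays, 1 heart per array. The authors averaged probe intensities per probe set, filtered and normalized them in GeneSpring GX, and deposited log2 values of 29170 probe sets from which the probe set's median over all 23 arrays is subtracted. No source used here states the normalization algorithm or the filter limits. Raw intensities were not used here, so signal over background is unknown and dim probe sets could not be filtered out.

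The values were used as deposited. limma 3.58.1 (R 4.3.3; lmFit and eBayes, 1 mean per group over all 23 hearts) gave diabetes minus HF diet, with Benjamini-Hochberg adjustment over 29170 probe sets. The threshold was a difference beyond 0.322 (log2) and an unadjusted p under 0.05. For single probe sets, all 462 splits of the 11 hearts gave a two-sided exact permutation p. The methods' t-test and 24 other settings were alternatives. The fit was tested on simulated data. Tables were made with pandas 2.3.3 and numpy 2.4.6 under Python 3.11.15, and plots with matplotlib 3.10.9.

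Probe sets were named from the platform annotation (15310 with 1 symbol, 323 with several, 13537 with none). Of the 15310, 15279 matched the RefSeq gene table by Entrez identifier. For 198 probe sets all values repeat those of another. Named were, among probe sets with 1 symbol, the 15 largest differences past the threshold in each direction, those without overlap, list members past it, the 2 members of each list with the smallest p, and the first 3 of a list described. A gene with several probe sets is given from the one with the smallest p. The comparison, the 59 gene lists and the naming rule were chosen with earlier results of these data known.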

Additional observations from a re-analysis of the deposited data

Results flagged for a closer look

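For the 39 named genes past the threshold, the values of each group were checked for a heart far from the others, with Dixon's test. Of 78 groups checked 7 were marked, and chance marks about 1 group in 20. Diabetes heart 3 was the lowest of 6 for Klhl38, at -1.23 with the next heart at 0.03, and for Ccng2, at -0.34 with the next at 0.07. HF diet heart 3 was the highest of 5 for Srsf5, at 1.20 with the next at 0.18, and the lowest for Sema7a, at -0.74 with the next at -0.23. HF diet heart 4 was the highest for Crispld2, at 0.85 with the next at 0.39, and the lowest for Fgf9, at -0.59 with the next at -0.20. Diabetes heart 5 was the highest for Fgf9, at 0.45 with the next at 0.16.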

How the results depend on the processing

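The 128 probe sets past the threshold became 226 with quantile normalization and 82 with the methods' t-test, and lay between 99 and 351 when 1 heart was left out. When only the 15310 probe sets with 1 gene symbol were tested 61 passed, against 59 of the same probe sets as reported. The count at an adjusted p under 0.05 was 0 in every setting run, leaving out 1 heart included, where its range was 0 to 0. The 37 probe sets without overlap became 48 to 106 with 1 heart left out, as fewer hearts must separate. Of the calls as reported 51.6% were higher in diabetes hearts. That share was 37.5% with hearts of 1 code stem averaged, 66.2% with the erythroid mean as a covariate, and from 35.9% (without diabetes heart 6) to 52.6% with 1 heart left out. The cause of these shifts was not tested. The replicate numbers were not taken to pair the hearts. Same-numbered diabetes and HF diet hearts correlated at 0.0919, 0.0947, 0.359, -0.254 and 0.35 in their deviations. Not every heart correlated best with its own number. These correlations cannot show whether same-numbered hearts were processed together. A replicate block gave 163 calls, 36.8% of them higher. Alas2 differed by -0.34 with the erythroid mean, of which it is a part, as a covariate, and by 0.17 as reported. Of 1475 values of the 59 named calls under the 25 alternatives, 403 lost the threshold and 0 changed sign. Settings that keep the group means, such as the methods' t-test, could not change a sign. Of 1475 list medians 4 moved by more than the spread between hearts. The covariate fit for brown fat, which gave 112 calls, was chosen after seeing the data. With 6 and 5 arrays, the number of hearts limits the precision.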
